A study of Mus musculus with 2 samples.

Results

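Genes of histone lysine methyltransferases and demethylases were compared between the 2 parental alleles of hybrid mouse embryonic stem (ES) cells. The table of allele-assigned nuclear RNA was searched for gene names that begin with Kdm1 to Kdm8, Kmt2 to Kmt5 or Setd followed by a digit, leaving out Kdm2b and chromosomes 10, 17 and Y. The search gave 31 of 48550 rows, of which 27 had at least 20 allele-assigned reads in each library and were tested. The cells were F121-6, a female ES cell line with 1 chromosome set of the 129 strain and 1 of Mus musculus castaneus (cas), grown without other treatment on mouse embryonic fibroblasts that mitomycin C had inactivated. Total nuclear RNA of 2 libraries formed 1 group. Reads were split by allele, so each gene was compared between 129 and cas inside a library. The labels name no separate cultures behind the libraries, so the p-values measure only the spread between these libraries, which may be technical. F121-6 is 1 cell line, and the labels give neither its maternal strain nor the strain of the fibroblasts.

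Lysine methyltransferases place methyl groups on histone tails, most of them through a SET domain, and demethylases remove them. The KDM1 enzymes oxidise the methyl group with the cofactor FAD, whereas the KDM2 to KDM8 proteins carry a Jumonji (JmjC) domain that uses iron and 2-oxoglutarate. In ES cells, methylation of lysine 4 of histone H3 marks active promoters and enhancers, methylation of lysine 36 marks transcribed gene bodies, and methylation of lysines 9 and 27 is linked to silencing.

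The libraries held 28523744 and 31402765 allele-assigned reads, with 53.6% and 54.2% from 129. After scaling, a gene with no allele difference relative to the typical gene had a 129 share of 55.1% in library 1 and 56.2% in library 2, and ratios are given as log2(129/cas) relative to that gene. They are on the scale of log2(CPM + 0.1), which understates the change of genes with few reads. Of 12 listed ES cell markers, 11 had enough reads to be tested. Of these, 6 were called higher from cas (22.0% of all tested genes) and 1 from 129 (21.9%), with a median ratio of -0.35. Sox2 was listed at 0 in every column although ES cells use it, so a 0 in this table need not mean a silent gene. Of 17 fibroblast markers, 13 were tested and 12 of them were called higher from 129 (21.9% of all tested genes). Their summed reads were 65.2% and 69.0% from 129 in the 2 libraries, against 52.9% and 53.2% for the enzyme genes, and Lum and S100a4 were at 0. Fn1, which supplied 75.4% and 69.8% of those marker reads, was 57.3% and 59.3% from 129, and the other markers together were 89.5% and 91.3% from 129. What RNA of the fibroblasts adds to the values below was not tested, and in such bulk RNA fewer cells of a type and less RNA per cell cannot be told apart.

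The enzyme genes lay close to an even split between the alleles. The 129 share of the 27 tested genes ran from 43.7% to 68.7% in library 1, with a median of 52.7%, and from 32.8% to 63.6% in library 2, with a median of 52.8%. The median size of the log2 ratio was 0.17, a 1.12-fold difference, against 0.40 (1.32-fold) over all 15509 tested genes. The members had more reads than the typical gene, with medians of 3882 and 4161 against 383 and 461, so their ratios were measured more precisely. Every one of the 27 had 100 reads or more per library, and over the 11446 genes with that many the median size was 0.33. That floor does not match the members' depth, and what depth adds to the difference in size was not tested. None of the 27 reached 2-fold, and 3 of them (Kdm8, Setd7 and Setd1a) reached 1.5-fold in their fitted ratio, whereas 37.2% of all tested genes and 29.4% of those with at least 100 reads did.

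**Figure D1:**
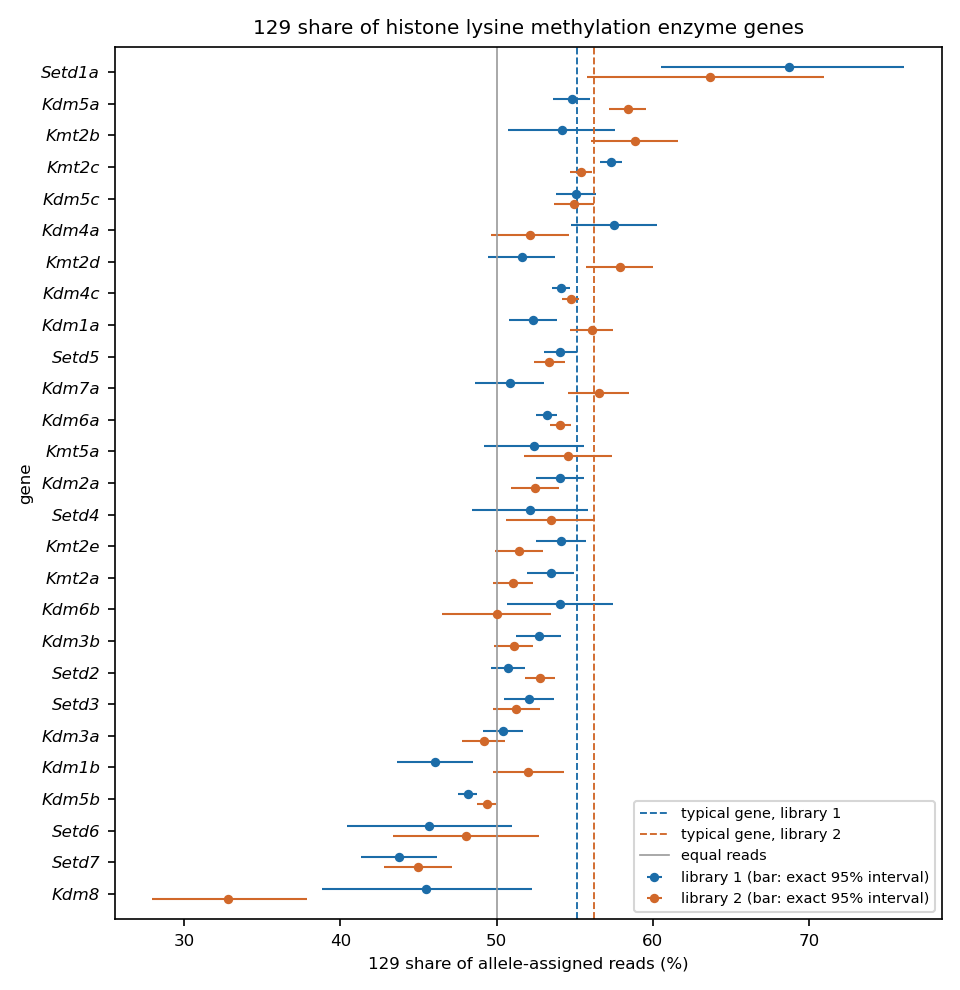
The 129 share of allele-assigned reads (x axis, percent) of the 27 tested enzyme genes, ordered by their mean, in library 1 and library 2, with exact 95% binomial intervals as bars. Dashed lines mark the share of the typical gene (55.1% and 56.2%) and the grey line marks equal reads; most genes lie between the grey line and the dashed lines, Kdm8, Setd7, Setd6 and Kdm5b lie below 50% in both libraries and Setd1a lies above 60%.

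In limma with Benjamini-Hochberg adjustment over all tested genes, 11 of the 27 genes (40.7%) were called at an adjusted p under 0.05, near the 43.9% called among all tested genes and under the 47.5% among genes with 100 or more reads per library. All 11 were higher from cas, where 22.0% of all tested genes and 24.0% of those with 100 or more reads were called in that direction, and 0 were higher from 129, against 21.9% of all tested genes. These background shares do not match the members' depth, and what depth adds to the calls in either direction was not tested. No member with a positive ratio had an unadjusted p under 0.05 in limma, and an exact binomial test in each library called 12 members from cas (22.7% of all tested genes) and 0 from 129 (22.4%). Of the 14 tested demethylase genes 6 were called, and of the 13 tested methyltransferase genes 5 were called, with median log2 ratios of -0.13 and -0.17. The median over the 27 genes was -0.14, against 0.00 over all tested genes and -0.35 over the 11 tested ES cell markers.

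The direction of these calls depended on the scaling. With the same library size for both alleles of a library, which takes equal reads as even, the median rose to 0.32 over all genes and to 0.19 over the enzyme genes, and 12 members were called from 129 (41.9% of all tested genes) and 2 from cas (9.62%). With the deposited column totals the medians were 0.10 and -0.04, and 2 members were called from 129 (27.0%) and 5 from cas (16.6%). The calls toward cas are thus shifts relative to the typical gene, and 20 of the 27 genes had more reads from 129 than from cas in both libraries, as did 62.5% of all tested genes. Fewer reads from 129 in both libraries were found for 4 members (Kdm5b, Setd7, Setd6 and Kdm8) and for 19.0% of all tested genes. Ratios of Kdm8, Setd7, Setd6, Kdm5b, Kdm1b and Kdm3a were negative, and those of Setd1a, Kdm5a, Kmt2b and Kmt2c positive, under each of the 4 scalings tried. Without the library as a block, which leaves the pairing of alleles unused, Kdm5b, Setd7 and Kdm8 were the 3 called members (11.6% of all tested genes called from cas), and 0 members were beyond 1.5-fold in limma's test against that size (12.8% of all tested genes, and 0 members at an unadjusted p under 0.05).

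**Figure D2:**
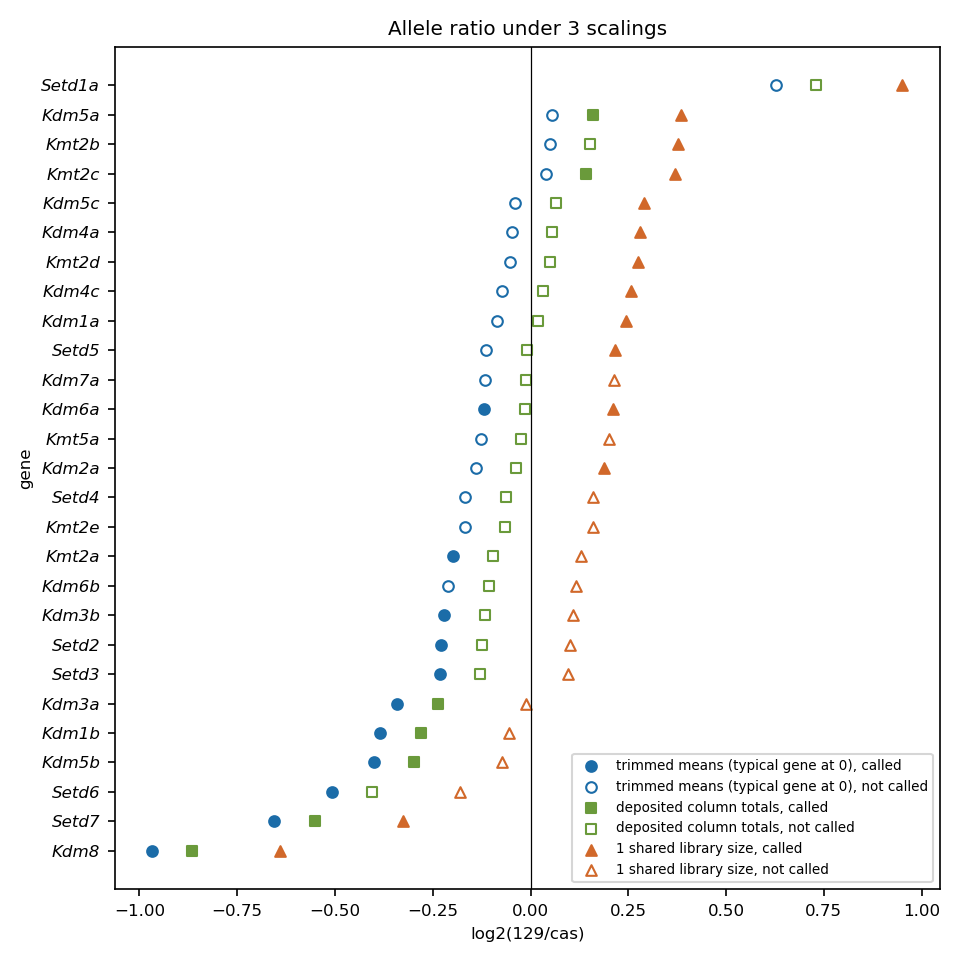
The log2(129/cas) ratio (x axis) of the 27 enzyme genes under 3 scalings, with filled symbols where limma called the gene at an adjusted p under 0.05. The median of the enzyme genes is -0.14 with trimmed means, -0.04 with the deposited totals and 0.19 with 1 shared library size, and Kdm8 and Setd7 are filled on the cas side under each.

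The largest ratio belonged to Kdm8, a JmjC-domain oxygenase gene (chromosome 7, 125444676 to 125462269, mm10). It had 101 reads from 129 and 121 from cas in library 1, and 119 and 244 in library 2. Its 129 shares were 45.5% (exact 95% interval 38.8 to 52.3) and 32.8% (28.0 to 37.9), both under the typical gene. The log2 ratio was -0.97 (SE 0.25, adjusted p = 0.00052 in limma), a 1.96-fold excess of cas reads, from -0.55 in library 1 and -1.38 in library 2. The intervals of the 2 libraries did not overlap, so the size of the ratio rests on which library is read.

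Setd7, which encodes a methyltransferase of lysine 4 of histone H3 and of other proteins (chromosome 3, 51515319 to 51560879), had 727 reads from 129 against 935 from cas in library 1, and 919 against 1124 in library 2. Both shares, 43.7% and 45.0%, were under 50%, and their intervals overlapped (41.3 to 46.2 and 42.8 to 47.2). The log2 ratio was -0.65 (SE 0.10, adjusted p = 2.66e-09), or 1.57-fold, and was nearly equal in the libraries (-0.66 and -0.65). The noncoding gene 5031434O11Rik lies across the start of Setd7 on the opposite strand, with 43 and 81 reads and a ratio of -0.70 without a call.

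Kdm5b, a demethylase gene for lysine 4 of histone H3 (chromosome 1, 134560171 to 134635285), gave the most precise of the called ratios. It had 11510 reads from 129 and 12399 from cas in library 1 and then 13772 and 14127 in library 2, with shares of 48.1% and 49.4%. The log2 ratio was -0.40 (SE 0.04, adjusted p = 1.87e-19), a 1.32-fold excess of cas relative to the typical gene, and was -0.40 in each library. The same reads gave -0.07 with 1 shared library size, so nearly all of the shift is set by what is taken as even.

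The promoters of these 3 genes and of Kdm6a are shown to set the largest called ratios, Kdm8 and Setd7, and the most precise one, Kdm5b, beside Kdm6a, the called gene with the smallest ratio. They come from RefSeq for the build GRCm38.p6, whose strain is neither parent of this cross, and the 129 and cas sequences were not read here. Each run ends before the first annotated base of the gene, reads 5′ to 3′ on the gene's strand, and has CG dinucleotides in capitals.
Kdm8 (chr7:125444370-125444619, plus strand): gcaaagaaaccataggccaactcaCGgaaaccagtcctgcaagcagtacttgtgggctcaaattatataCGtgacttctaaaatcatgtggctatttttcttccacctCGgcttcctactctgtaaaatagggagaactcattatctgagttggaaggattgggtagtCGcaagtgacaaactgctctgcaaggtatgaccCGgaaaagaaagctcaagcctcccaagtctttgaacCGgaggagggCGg
Setd7 (chr3:51560880-51561073, minus strand): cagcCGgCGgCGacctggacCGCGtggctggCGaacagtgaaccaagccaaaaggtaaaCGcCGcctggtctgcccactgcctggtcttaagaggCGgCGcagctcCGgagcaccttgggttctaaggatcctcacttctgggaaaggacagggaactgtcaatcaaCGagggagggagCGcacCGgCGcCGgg
Kdm5b (chr1:134559928-134560170, plus strand): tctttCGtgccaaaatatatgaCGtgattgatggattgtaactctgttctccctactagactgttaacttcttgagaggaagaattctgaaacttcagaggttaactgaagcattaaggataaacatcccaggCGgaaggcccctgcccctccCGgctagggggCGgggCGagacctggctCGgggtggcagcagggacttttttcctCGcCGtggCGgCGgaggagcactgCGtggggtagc
Kdm6a (chrX:18162325-18162574, plus strand): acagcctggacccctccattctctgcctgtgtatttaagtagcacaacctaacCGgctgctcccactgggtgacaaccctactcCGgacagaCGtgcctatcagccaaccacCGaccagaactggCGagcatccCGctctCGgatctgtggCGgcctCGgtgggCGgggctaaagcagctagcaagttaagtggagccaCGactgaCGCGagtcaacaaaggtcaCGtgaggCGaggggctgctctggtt

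The runs hold 7 CG dinucleotides in 250 bases for Kdm8, 16 in 194 for Setd7, 12 in 243 for Kdm5b and 15 in 250 for Kdm6a. Over the 22 enzyme genes with a RefSeq entry, the 250 bases before the entry's start held a median of 20, against 6 over all 32851 entries. Kdm7a (56) and Kmt2c (48) had the most. The entry of Setd5, with 0, starts about 27571 bases from the annotated start of the gene, and that of Setd1a about 720 bases away. Searched on both strands, GGGCGG (the GC box) was found 1 time each for Kdm8, Kdm5b and Kdm6a and 0 times for Setd7. It is held by 32.7% of all promoters over 250 bases, by 31.8% over the 243 bases of the Kdm5b run and by 23.6% over the 194 bases of the Setd7 run. CCAAT was found 1 time for Kdm8 and in none of the other 3 runs (33.9% of all promoters over 250 bases, 33.3% over 243 and 27.5% over 194). TATAAA (12.4%, 12.2% and 8.9%) and the ETS motif CCGGAAG (6.91%, 6.4% and 3.77% over those lengths) were found in none of the 4. The Setd7 run overlaps 1 annotated exon.

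Among the KDM1 genes, Kdm1b was called and Kdm1a was not. Kdm1b encodes the flavin-dependent demethylase known for its part in oocytes (chromosome 13, 47043499 to 47085279). It had 756 reads from 129 and 886 from cas in library 1 and then 970 and 894 in library 2. The libraries fell on opposite sides of 50%, with shares of 46.0% and 52.0% and intervals that did not overlap (43.6 to 48.5 and 49.7 to 54.3). Its log2 ratio was -0.38 (SE 0.11, adjusted p = 0.0011), from -0.53 and -0.24. Dek (-0.41) and Tpmt (0.90), both called, overlap its span on the opposite strand, and the sources used here do not say if strand entered the counting. Kdm1a, which encodes the corepressor enzyme LSD1, had shares of 52.3% and 56.1% and a ratio of -0.09 (SE 0.07, adjusted p = 0.36). Its span overlaps Luzp1 on the opposite strand, which had 0.13 without a call.

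Both KDM3 genes, whose products demethylate lysine 9 of histone H3, were called. Kdm3a (chromosome 6, 71588972 to 71632990) had 3025 reads from 129 and 2975 from cas in library 1 and then 2493 and 2578 in library 2, which is close to equal numbers. Relative to the typical gene this was a log2 ratio of -0.34 (SE 0.07, adjusted p = 4.17e-06), from -0.27 and -0.41. Kdm3b, on chromosome 18, had shares of 52.7% and 51.1% and a smaller ratio of -0.22 (SE 0.07, adjusted p = 0.0052), from -0.14 and -0.30.

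The KDM2, KDM7 and KDM4 genes were not called. Kdm2a, for lysine 36 of histone H3, had a ratio of -0.14 (adjusted p = 0.13) and Kdm7a, a demethylase gene for lysines 9 and 27, had -0.12. Kdm7a differed between the libraries, with 1010 reads from 129 against 977 from cas in library 1 and 1447 against 1112 in library 2, and ratios of -0.25 and 0.02. Of the KDM4 genes, for lysines 9 and 36, Kdm4c was the member with the most reads. It had 15247 reads from 129 and 12927 from cas in library 1, and 17299 and 14305 in library 2, and a ratio of -0.07 (SE 0.04, adjusted p = 0.14). With as many reads the exact binomial test called it from cas. Kdm4a had 741 and 547 reads in library 1 and 840 and 771 in library 2, with ratios of opposite sign (0.14 and -0.24). Kdm4d, a germline member, had 8 reads in library 1 and 13 in library 2 and was not tested.

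The KDM5 genes, paralogs that act on the same lysine of histone H3, did not share the shift of Kdm5b. Kdm5a had 3747 reads from 129 and 3088 from cas in library 1 and then 4010 and 2857 in library 2, a ratio of 0.05 (SE 0.06, adjusted p = 0.52). Its shares of 54.8% and 58.4% had intervals that did not overlap, and the span overlaps Ccdc77, which starts 0.3 kb away on the opposite strand and had -0.19 without a call. Kdm5c, on the X chromosome, had shares of 55.1% and 54.9% and a ratio of -0.04 (SE 0.07, adjusted p = 0.67). Whether the ratios of the KDM5 genes differ from each other was not tested.

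Kdm6a and Kdm5c are known for escaping X inactivation in differentiated female cells, whereas female ES cells keep both X chromosomes active. Kdm6a, a demethylase gene for lysine 27 of histone H3 (chromosome X, 18162575 to 18279936), had 11305 reads from 129 and 9941 from cas in library 1 and then 11407 and 9691 in library 2. The shares of 53.2% and 54.1% had overlapping intervals. Its log2 ratio was -0.12 (SE 0.05, adjusted p = 0.023), the smallest of the 11 called ratios, and 0.21 with 1 shared library size. The 555 tested X-linked genes had a median of -0.07, and 39.5% of them were called, 94 from 129 and 125 from cas. The autosomal paralog Kdm6b had shares of 54.1% and 50.0% and a ratio of -0.21 (SE 0.15, adjusted p = 0.25). Its antisense transcript Kdm6bos was listed at 0 in every column.

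The KMT2 and SETD1 genes encode the catalytic subunits of the COMPASS complexes, which methylate lysine 4 of histone H3. Kmt2e, grouped with them by name, is not known as such a subunit. Of 6 tested, Kmt2a was called, with shares of 53.5% and 51.1% and a ratio of -0.20 (SE 0.07, adjusted p = 0.013), from -0.10 and -0.30. Kmt2e had -0.17 (adjusted p = 0.064), and its span overlaps Srpk2 on the opposite strand (-0.07). A further 3 genes of the family had libraries of opposite sign. Kmt2c, a long gene with 11838 reads from 129 and 8814 from cas in library 1 and 10754 and 8667 in library 2, had 0.13 and -0.05. Kmt2d had 1099 and 1030 reads in library 1 and 1235 and 899 in library 2, with -0.20 and 0.10. Kmt2b had 461 and 390 reads and then 735 and 514, with -0.06 and 0.16. The fitted ratios of the 3 were 0.04, -0.05 and 0.05, none of them called.

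Setd1a was the member with the largest share from 129 (chromosome 7, 127776670 to 127800122). It had 101 reads from 129 and 46 from cas in library 1 and then 105 and 60 in library 2, the fewest of the tested members. Its shares were 68.7% (exact 95% interval 60.5 to 76.1) and 63.6% (55.8 to 71.0). Both libraries lay above the typical gene, with ratios of 0.82 and 0.44, but the log2 ratio of 0.63 (SE 0.34) was not called (adjusted p = 0.13), and it was called with 1 shared library size (0.95, adjusted p = 0.014). The span overlaps the annotated gene Gm49388 on the same strand and 9430064I24Rik on the other. Setd1b was listed at 0 in every column, as was the pseudogene Kdm4dl.

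Setd2, which encodes the enzyme for trimethylation of lysine 36 of histone H3, was called with a small ratio. It had 4191 reads from 129 and 4075 from cas in library 1, and 5254 and 4701 in library 2, and a ratio of -0.23 (SE 0.06, adjusted p = 0.00038). Kmt5a, for lysine 20 of histone H4, had shares of 52.4% and 54.6% and -0.13 (adjusted p = 0.45). Among the other SETD genes, Setd6, which encodes a methyltransferase of non-histone proteins (chromosome 8, 95715881 to 95719010), had 163 reads from 129 against 194 from cas in library 1 and 218 against 236 in library 2. The shares of 45.7% and 48.0% gave a ratio of -0.51 (SE 0.21, adjusted p = 0.036), from -0.54 and -0.47. Setd3, whose product methylates a histidine of actin, had -0.23 (SE 0.08, adjusted p = 0.0070), from -0.18 and -0.29. Setd4 (-0.17, adjusted p = 0.34) and Setd5 (-0.11, adjusted p = 0.10) were not called.

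The agreement between libraries was limited for several members. The exact intervals of the 129 share did not overlap between the libraries for 9 of the 27 genes (Kdm1a, Kdm1b, Kdm4a, Kdm5a, Kdm7a, Kdm8, Kmt2c, Kmt2d and Setd2), against 17.4% of all tested genes and 19.0% of those with at least 100 reads. The ratio was negative in both libraries for 20 members, positive in both for 1 (Setd1a) and of mixed sign for 6. Intervals cover counting error only, and genes with many reads have narrow ones. They are on the unscaled share, and the share of the typical gene itself moved from 55.1% to 56.2% between the libraries. Setd2 had a gap with scaled ratios of -0.26 and -0.20, whereas Kdm3b, with overlapping intervals, had -0.14 and -0.30. The SE of a gene rests on a spread pooled over genes of like abundance, so it does not show how far that gene's own libraries differed.

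**Figure D3:**
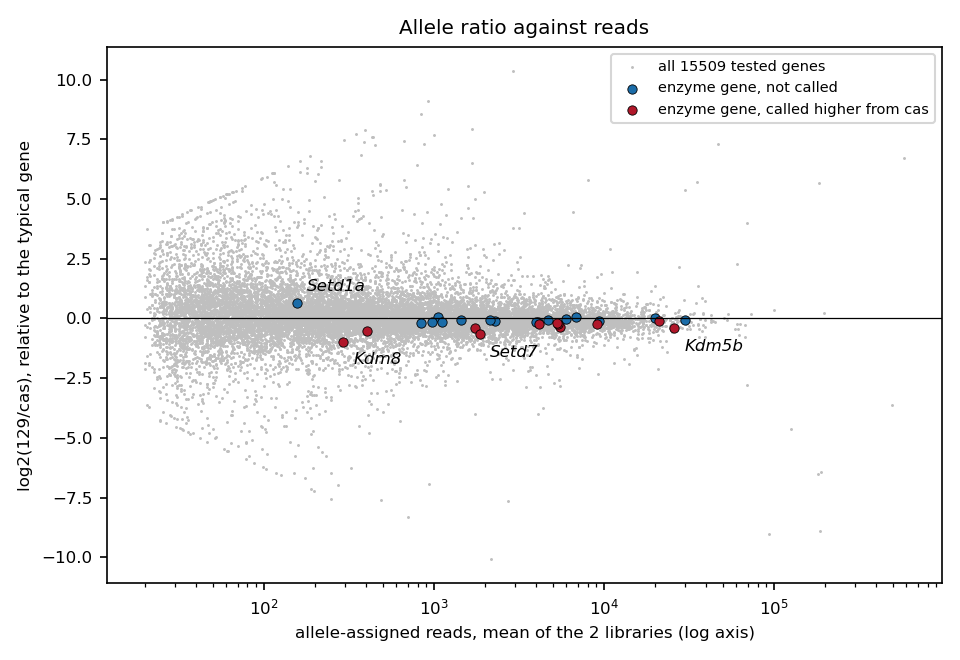
The log2(129/cas) ratio relative to the typical gene (y axis) against the mean number of allele-assigned reads of the libraries (x axis, log scale) for all 15509 tested genes (grey) and the 27 enzyme genes (red where called higher from cas, blue where not called). The enzyme genes lie between -0.97 (Kdm8) and 0.63 (Setd1a), and these ends of the range belong to the tested members with the fewest reads.

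The ratios of the enzyme genes were set beside those of their neighbours. The nearest tested gene on each side of a member, 54 genes in all, had ratios from -2.89 to 2.71 with a median of -0.08 and a median size of 0.28. Of these, 8 were called from 129 (21.9% of all tested genes) and 8 from cas (22.0%). A ratio of 2-fold or more was found for 9 of them and for 20.4% of all tested genes, the 9 each with at most 165 reads in a library. Many of these neighbours had fewer reads than the enzyme genes, and the sizes were not compared by a test. Kdm1b (-0.38) stood between Kif13a with -0.36 and Tpmt with 0.90. The gene 5031425E22Rik, which starts 1.1 kb from Kmt2e on the opposite strand, had shares of 70.4% and 70.1% from 129 and a ratio of 0.91 (SE 0.12, adjusted p = 4.18e-12), against -0.17 for Kmt2e. Cbr1, 4.0 kb from Setd4, had -1.57 (SE 0.36, adjusted p = 6.53e-05) against -0.17 for Setd4. Nsmce1, the nearest tested gene to Kdm8 on its right, had -0.04 without a call. On the left of Kdm8, 4933440M02Rik was called from 129 at 2.71 (SE 0.99), with only 25 and 26 reads.

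Other genes of histone lysine methylation were taken from 4 lists of partners and related enzymes. Of 46 tested, 7 were called from 129 and 22 from cas, where 21.9% and 22.0% of all tested genes were called. Their median was -0.18, against 0.00 over all tested genes, and 3 reached 2-fold, as did 20.4% of all tested genes. The background shares given for these lists were not matched for the reads of the listed genes. Among the subunits of the COMPASS complexes, 7 of 12 were called from cas (22.0% of all tested genes) and 1 from 129 (21.9%). Ash2l, a core subunit, had 2580 reads from 129 against 2913 from cas in library 1 and 3072 against 3492 in library 2, more from cas in both, and a ratio of -0.51 (SE 0.07, adjusted p = 3.64e-13). Bod1l had -0.30, Cxxc1, the CpG-binding subunit of the SETD1 complexes, had -0.73 (from -0.33 and -1.14), and the coactivator gene Ncoa6 went the other way with 0.55 (SE 0.10).

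Of the genes listed as partners of LSD1 and of the KDM5 complexes, 10 of 13 were called from cas (22.0% of all tested genes) and 1 from 129 (21.9%). Rcor2, which encodes an LSD1 corepressor of ES cells, had 192 reads from 129 and 316 from cas in library 1 and then 228 and 510 in library 2. Its ratio of -1.26 (SE 0.17, adjusted p = 4.88e-12) was a 2.40-fold excess of cas. Phf21a, another LSD1 partner, had -0.66 (SE 0.05) and Arid4b -0.30 (SE 0.05). Glyr1, which is on the list but is not known as an LSD1 partner, had -0.61 (SE 0.08). With 1 shared library size the medians of the COMPASS and LSD1 lists were 0.10 and 0.02, so the direction of these lists also turns with the scaling, while Rcor2 stayed at -0.94 and Phf21a at -0.33.

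Of the other SET-domain genes, 5 of 14 were called from 129 (21.9% of all tested genes) and 4 from cas (22.0%). Mecom had 1794 reads from 129 and 144 from cas in library 1, and 2636 and 261 in library 2, a share of 91.8% ± 1.12 (SD, n = 2) and a ratio of 3.15 (SE 0.12). Prdm16, its paralog, had 1563 and 216 reads and then 1943 and 218, a share of 88.9% ± 1.45 (SD, n = 2) and a ratio of 2.67 (SE 0.12). These are the genes of the lists nearest to the fibroblast markers, whose median ratio was 4.48, and the part of fibroblast RNA in them was not tested. Setmar had -0.98 (from -0.44 and -1.52), and the genes with the most reads, Smyd3 and Nsd1, both had -0.23. Of 7 other JmjC genes, Hspbap1 alone was called, at -0.34 (SE 0.06), against 43.9% of all tested genes called in either direction. The X-linked Phf8 had -0.05.

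**Figure D4:**
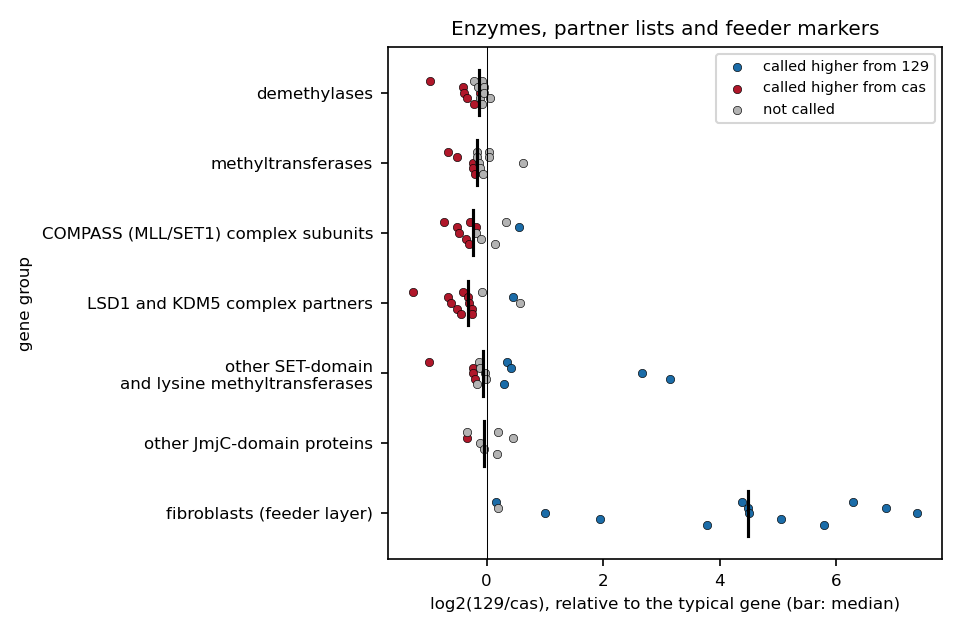
The log2(129/cas) ratios relative to the typical gene (x axis) of the tested demethylase and methyltransferase genes, the 4 lists of partners and related enzymes, and the fibroblast markers, with 1 point per gene and a black bar at each median. The enzyme groups have medians of -0.13 and -0.17, the fibroblast markers one of 4.48, and Mecom and Prdm16 are the points at 3.15 and 2.67. The ES cell markers (median -0.35) are not drawn.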

How the data were processed

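Nuclear RNA of 2 F121-6 libraries was sequenced as 100 bp paired-end reads and merged with earlier reads of the same libraries, per the labels' protocols. Bowtie2 and mm10 are named in the submitters' processing notes. For the counting program, SNP set, annotation and strand setting the sources used here name nothing. The authors deposited RPKM, under column headers that speak of counts. Value times row length was a whole multiple of 1 step in every column (100.0% of values, tolerance 0.01 read), which gave reads per allele. The deposited lengths match none of the 31 members' spans, which does not touch allele ratios within a gene.

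All 15509 rows off chromosome Y with at least 20 reads in each library were fitted with limma 3.58.1 in R 4.3.3 on log2(CPM + 0.1), with trimmed-mean (TMM) scaling, trended variance, allele as the tested term and library as a block, since 1 RNA sample supplies both allele columns of a library. The code was tested on simulated data. Calls are at a Benjamini-Hochberg adjusted p under 0.05. Alternatives were other scalings, pseudocounts and read minimums, no block, a 1.5-fold test, an exact binomial test (scipy 1.17.1), single libraries and members free of overlap. Rows were placed with GENCODE M21. Members with an absolute log2 ratio of at least 0.3 and a call, or with libraries of opposite sign or over 0.5 apart, are given with their reads. In each other list the 2 genes with the most reads and up to 3 called genes of largest ratio are named, and other genes named were chosen after their values were seen. The members and lists were chosen with earlier results of these data known.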

Additional observations from a re-analysis of the deposited data

How the results depend on the processing

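With 1 shared library size, 12 enzyme genes were called from 129 and 2 from cas, their median was 0.19, and the partner lists had 15 and 4 calls with a median of 0.14, while all genes had 6505 and 1492. Kdm1a (0.24), Kdm2a (0.19), Kdm3b (0.11), Kdm4a (0.28), Kdm4c (0.26), Kdm5c (0.29), Kdm6a (0.21), Kdm6b (0.12), Kdm7a (0.21), Kmt2a (0.13), Kmt2d (0.28), Kmt2e (0.16), Kmt5a (0.20), Setd2 (0.10), Setd3 (0.10), Setd4 (0.16) and Setd5 (0.22) then had positive ratios. With the deposited column totals, the calls were 2 and 5, the medians -0.0366 for the enzyme genes and -0.0807 for the partner lists, and Kdm1a (0.0183), Kdm4a (0.0552), Kdm4c (0.0307), Kdm5c (0.0646) and Kmt2d (0.0503) turned positive. By construction these settings change only what counts as even. Without the replicate block (the pairing of alleles within a library), 3 enzyme genes, 7 partner genes and 1804 of all genes were called from cas, and 2150 of all genes from 129. The test beyond 1.5-fold called 0 enzyme genes from cas, and 1187 of all genes from 129 and 794 from cas. Of the 12 tested members free of overlap with another annotated gene, 6 were called from cas, against 22.0% of all tested genes. Leaving out a library gave enzyme medians from -0.20 to -0.14 and partner medians from -0.26 to -0.19, as values with no test, since 1 library leaves no spread. An exact binomial test over all genes, added after seeing the data, called 3467 from 129 and 3523 from cas. Median-of-ratios size factors and a pseudocount of 1 CPM kept the direction and call of all 27 enzyme genes. Setd6 lost its call with no read minimum, and Setd6 and Kdm6a lost theirs with at least 100 reads. The planned count models were not run. Depth limits Setd1a, Kdm8 and Setd6, the tested members with the fewest reads.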
